A study of Mus musculus with 22 samples.

Results

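Skipped exons of 61 to 200 bases whose length is not a multiple of 3 were examined in 6 cell types sorted from the mouse colon crypt. They made up 4894 of the 10801 skipped exon events in the deposited splicing tables, and they were 4668 different exons of 3393 genes, where all events lay in 5605 genes. They were chosen by exon length alone among the events that the authors' tables list. They are called frame-shifting, or said to shift the frame, by this length, also where the exon lies outside coding sequence. Of them, 2551 were listed in 1 table, each of which sets Stem against another cell type, and 711 in all 5. Among the 8277 events with an exon of 61 to 200 bases, 59.1% shifted the frame, 2474 with 1 base and 2420 with 2 bases left over after division by 3. A total of 2405 genes held 1 such event and 988 genes held more, up to 10 in Kcne3, the subunit of a potassium channel, and events of a gene share reads and are not independent.

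The cells came from wild-type male C57BL/6N mice of 5 to 7 weeks and were sorted as Epcam+ Cd31- Cd45- by Cd44, Cd24 and cKit. The cell types were stem cells (Stem, 3 libraries), absorptive progenitors (AbsPro, 3), a mixed gate of secretory progenitors, deep crypt secretory cells and goblet cells (SecPDG, 4), tuft cells (Tuft, 5), enterocytes (Ent, 5) and enteroendocrine cells (EEC, 2). All animals shared this genotype, and mice were pooled for every cell type but Stem and AbsPro. The question was how the splicing of RNA differs between stem cells and each of the other 5 cell types, and all of these comparisons share the same 3 Stem libraries.

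An exon between introns can be joined into the messenger RNA or left out of it. Where it lies inside coding sequence and its length is not a multiple of 3, leaving it out moves the reading frame of everything downstream. The ribosome then usually meets a stop codon soon after the skipping junction. A stop codon well upstream of the last exon junction is known to expose a messenger RNA to nonsense-mediated decay, whereas a stop near the end gives a protein with another tail. An exon that brings a stop codon of its own, often called a poison exon, works the other way round, since inclusion ends the frame. Inclusion is given here as the percentage of transcripts with the exon, from inclusion and skipping counts divided by the effective lengths of both forms.

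The bases that carry this are shown for 11 exons, read from GENCODE M21 transcripts on mm10 (GRCm38), with the stop codon in capitals. In the first set the included exon holds the end of the coding frame, and its coding bases are printed down to the stop. These are Itga6 (chr2:71853534-71853663, plus strand), Eif4a2 (chr16:23112351-23112457, plus strand), Esrp1 (chr4:11338722-11338831, minus strand) and Msi2 (chr11:88347053-88347125, minus strand), which were chosen to show how short the alternative tails are.
Itga6 exon of 130 bases: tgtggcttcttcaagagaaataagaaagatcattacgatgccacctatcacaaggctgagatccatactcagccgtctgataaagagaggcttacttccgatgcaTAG
Eif4a2 exon of 107 bases: gagtcgaTAG
Esrp1 exon of 110 bases: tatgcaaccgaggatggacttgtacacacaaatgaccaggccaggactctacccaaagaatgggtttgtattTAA
Msi2 exon of 73 bases: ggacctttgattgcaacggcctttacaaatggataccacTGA

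In the second set the exon lies inside the coding frame, and the last 30 bases before the skipping junction are printed with the bases after it down to the new stop. These are Ctnnd1 (chr2:84608329-84608416, minus strand), St14 (chr9:31108571-31108730, minus strand), Hnrnph3 (chr10:63018760-63018898, minus strand), Mbnl1 (chr3:60622146-60622240, plus strand), Ndufs4 (chr13:114351448-114351526, minus strand) and Syce2 (chr8:84883431-84883584, plus strand). The new stop comes 18 bases after the junction in Ctnnd1, 39 in St14, 101 in Hnrnph3, 29 in Mbnl1, 13 in Ndufs4 and 10 in Syce2. For Cenpa (chr5:30669692-30669828, plus strand) the annotated coding form lacks the exon, and the exon is printed down to the stop that it brings after 41 bases.
Ctnnd1 without the exon of 88 bases: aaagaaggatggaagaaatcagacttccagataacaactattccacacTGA
St14 without the exon of 160 bases: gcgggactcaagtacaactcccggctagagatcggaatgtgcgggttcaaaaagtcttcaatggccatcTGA
Hnrnph3 without the exon of 139 bases: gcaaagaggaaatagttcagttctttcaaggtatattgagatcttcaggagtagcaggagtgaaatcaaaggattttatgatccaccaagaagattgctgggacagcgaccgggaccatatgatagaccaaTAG
Mbnl1 without the exon of 95 bases: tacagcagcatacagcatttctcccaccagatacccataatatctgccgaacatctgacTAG
Ndufs4 without the exon of 79 bases: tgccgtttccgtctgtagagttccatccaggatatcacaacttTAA
Syce2 without the exon of 154 bases: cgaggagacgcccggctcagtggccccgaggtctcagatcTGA
Cenpa exon of 137 bases: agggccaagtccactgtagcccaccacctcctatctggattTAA

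The annotation placed most of these exons inside coding sequence. Of the 4894 events, 4873 had an exon that is annotated with the same ends and 1425 (29.1%) had an annotated skipping junction, against 1229 of the 3383 events of the same sizes that keep the frame (36.3%). The exon lay wholly in coding sequence in 3804 events, in the 5′ UTR in 288, across the start codon side in 243, across the stop codon side in 44 and in the 3′ UTR in 2. In 141 events only the form without the exon was coding, and in 372 neither form was coding with these flanks. Median exon length was 113 bases (114 for those that keep the frame), median GC content was 48.7% (50%), and the median flanking introns were 2145 bases upstream (2077) and 1947.5 bases downstream (1935).

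Reading the frame through the skipping junction showed what the length implies. Of 3782 frames that could be read, 3109 (82.2%) met a stop more than 50 bases upstream of the last exon junction and 672 met another stop nearer to the end, while 1 met none. The median distance from the junction to the new stop was 35 bases. Of 2758 frames with an exon that keeps the frame, 9 (0.326%) gained an early stop and 2745 kept the annotated stop. Of 85 frames read with an exon that the coding form lacks, 75 met an early stop, and in 60 events this stop lay inside the exon itself. These figures follow from the exon lengths and the annotation and use no read counts.

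**Figure D1:**
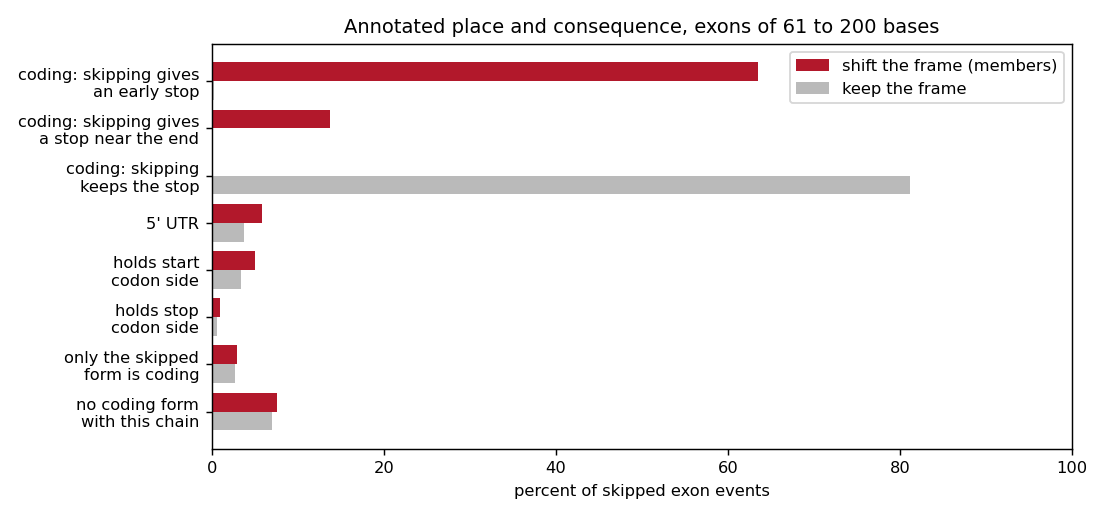
Percentage of skipped exon events (horizontal axis) by the annotated place of the exon and the consequence of skipping or inclusion, for exons of 61 to 200 bases that shift the frame (red, 4894 events) and that keep it (grey, 3383 events). An early stop after skipping is the most frequent class of the red bars, and a kept stop is that of the grey bars.

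The libraries differed in depth and in the share of reads outside annotated genes, with the lowest depth and the highest share in the same EEC library. Reads counted on genes came to 15314543 to 22462518 in Stem, AbsPro and SecPDG libraries, 9930648 to 20892532 in Tuft, 5950619 to 12966128 in Ent, and 4122122 and 13132315 in EEC. Reads outside genes were 40.9% to 49.4% of reads in the first 3 cell types, 43.4% to 68.0% in Tuft, 66.8% to 83.1% in Ent, and 89.7% and 64.5% in EEC. In the splicing table of Stem and EEC, 505 of its 767 frame-shifting events had under 10 counts in the first EEC library and 141 in the other. Marker lists were examined for all cell types but AbsPro, and each was present in its own cell type. The summed normalized level of 5 goblet and secretory markers was 513660 to 1050094 in Tuft libraries and overlapped with the 550850 to 1461546 of SecPDG. That of 5 enterocyte markers was 18581 and 55784 in the EEC libraries and 22270 to 27216 in Ent. The part of depth, of reads outside genes and of these markers in the inclusion values was not tested.

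In stem cells most of the exons were almost always included. With at least 10 counts in each of the 3 Stem libraries, 2863 of the 4894 events could be measured, and 90% of them had a mean inclusion of at least 90%, with 245 between 10% and 90% and 42 under 10%. For exons of the same size that keep the frame, 83.1% of 2089 events reached 90%. The library spread of events between 10% and 90% was wide, with a median SD of 24.7 percentage points over the 3 Stem libraries. Over all libraries, 104 of the 4894 events reached 10 counts nowhere and 118, in 111 genes, did so in all 22 libraries. Of these 118, 84 had a mean of at least 90% in all 6 cell types, 5 stayed under 10% in all, and in 14 the 6 means spanned more than 20 points.

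The share of such exons differed with their place in the transcript. In Stem, mean inclusion reached 90% in 93.4% of 1928 measured events whose skipping gives an early stop, in 89.1% of 413 with a stop near the end, and in 87.1% of 147 that hold the start codon side. It did so in 62.9% of 105 events in the 5′ UTR and in 64.0% of 25 that hold the stop codon side. Of 25 events in which inclusion brings an early stop, 16.0% reached 90%, 14 were under 10% and the median was 9.10%. No Stem event with an early stop after skipping had a mean under 10%. Where the skipping junction was annotated, 74.2% of 705 events reached 90%, and where it was not, 95.1% of 2158. The same split for exons that keep the frame gave 60.1% of 659 and 93.8% of 1430. These shares are descriptions of the same 3 libraries, without a test.

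Each cell type is measured over its own set of events, since a table lists an exon only where its cell types show both forms, and Stem is in all 5 tables, so that the shares of different cell types cannot be set against each other. In the other cell types, events with an early stop after skipping reached 90% in 84.8% of 820 in AbsPro, 94.1% of 813 in SecPDG, 94.9% of 653 in Tuft, 93.9% of 610 in Ent and 89.1% of 119 in EEC. Events that hold the stop codon side did so in 23.1% of 13 in AbsPro, 30.8% of 13 in SecPDG, 43.8% of 16 in Tuft and 33.3% of 9 in Ent. Those with an early stop on inclusion had medians of 5.52% in AbsPro, 16.4% in SecPDG, 8.69% in Tuft and 5.34% in Ent.

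Counted library by library over the 711 frame-shifting and the 604 frame-keeping events present in all 5 tables, the share of events at 90% or more was higher for the frame-shifting exons in 22 of 22 libraries. It was 59.4% to 81.0% in Stem against 52.0% to 70.2% for exons that keep the frame. In AbsPro it was 76.4% to 85.3% against 64.7% to 73%, and in SecPDG 76.7% to 87.9% against 62.2% to 82.4%. In Tuft it was 78.3% to 88.4% against 61.3% to 83.1%, in Ent 78.0% to 81.8% against 63.4% to 72.8%, and in EEC 86.4% and 91.0% against 79.2% and 85.8%. The libraries share the events and their genes, so that the 22 comparisons are not independent. Stem is in all 5 tables, so an exon that shows both forms in Stem enters this set more readily. From 245 to 680 of the 711 events were measured in a library, and the levels of different cell types are not compared here either. In each cell type the library with the fewest events measured had the highest share, for both kinds of exon. For frame-shifting exons this was 81.0% on 578 events in Stem, 88.4% on 457 in Tuft and 91.0% on 245 in EEC. The part of depth in these shares was not tested.

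**Figure D2:**
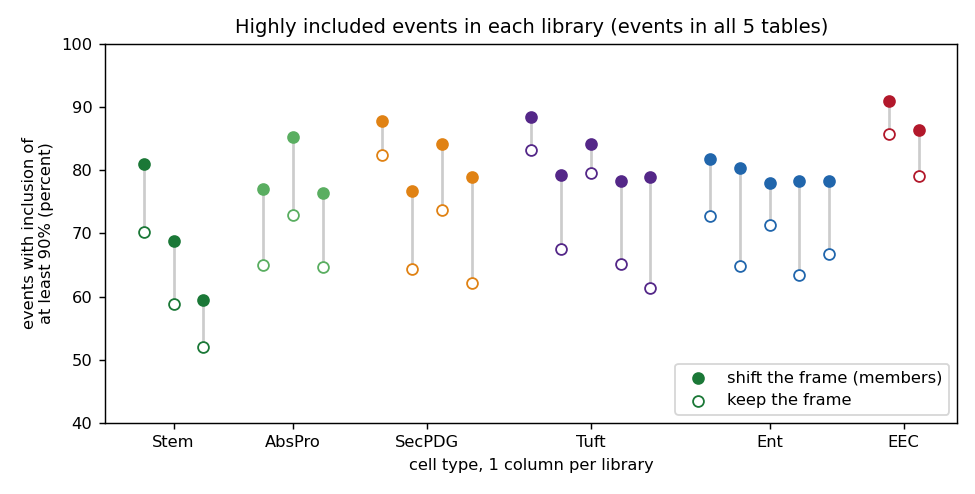
Percentage of measured events with an inclusion of at least 90% (vertical axis, from 40 to 100 percent) in each of the 22 libraries, for exons of 61 to 200 bases that shift the frame (filled) and that keep it (open), among events of all 5 tables. The filled point lies above the open one in every library. The lowest values of both are in Stem, which is in all 5 tables and so shapes which events are shown, and cell types are not compared. In each cell type the highest points are those of the library with the fewest events measured, and the part of depth was not tested.

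Exons that bring their own stop were mostly left out. Of the 60 such events, 21 were measured in every Stem library, 13 of them with a mean under 10%, 6 between 10% and 90% and 2 at 90% or more. In Rpl22, which encodes a ribosomal protein, the exon of 154 bases was at 0.146% ± 0.253 in Stem (SD, n = 3) and at 0.191% ± 0.177 in AbsPro (SD, n = 3). In Fkbp1a, which encodes a peptidyl-prolyl isomerase, the exon of 128 bases was at 0.146% ± 0.253 in Stem and 0.937% ± 1.62 in AbsPro (SD, n = 3 each). Other exons of this kind were not left out. The exon of 148 bases in Mtf2, a Polycomb-associated factor, was at 46.4% ± 2.71 in Stem and 59.1% ± 20.7 in AbsPro. That of 83 bases in Dram2 was at 87.2% ± 11.5 in Stem and 94.8% ± 1.99 in AbsPro. Exons in Spopl, Ankrd11 and Cenpa had means of 30.4%, 29.1% and 28.0% in Stem.

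No frame-shifting event was called between cell types by edgeR's quasi-likelihood test at an adjusted p under 0.05, and no event of any kind was. Against Stem, 0 of 1671 events tested in AbsPro, 0 of 1968 in SecPDG, 0 of 2039 in Tuft, 0 of 1663 in Ent and 0 of 570 in EEC were called, where the background over all events tested was 0.0% in each. The same count was 0 of 1127 for SecPDG vs AbsPro, 0 of 963 for Ent vs AbsPro and 0 of 1213 for Tuft vs SecPDG. The lowest adjusted p of a frame-shifting event was 0.800 in AbsPro, 0.716 in SecPDG, 0.625 in Tuft, 0.590 in Ent, 0.854 in EEC and 1 in the 3 comparisons without Stem. An unadjusted p under 0.05 was reached by 1, 10, 33, 39 and 6 events against Stem in AbsPro, SecPDG, Tuft, Ent and EEC, and by 6, 30 and 13 in the others. A quasi-binomial model called 0 in all 8 comparisons and had 107, 132, 181, 190, 32, 42, 60 and 40 events at an unadjusted p under 0.05 in the same order. limma on the log2 ratio of the counts called 1 event, in EEC, and 0 in the other comparisons, with 63, 135, 306, 426, 24, 44, 216 and 53 at an unadjusted p under 0.05. The matching unadjusted counts over all events are not given, so these counts are not read as a trait of the frame-shifting exons.

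The reach of the test was looked at on simulated counts. On simulated counts with an overdispersion of 0.02, the test recovered 34% of events with a log2 odds change of 4 in AbsPro vs Stem, 26% in SecPDG, 31% in Tuft, 18% in Ent and 16% in EEC, and with an overdispersion of 0.1 it recovered 0% in each. The observed median overdispersion of well-counted frame-shifting events was 0.122, 0.109, 0.114, 0.0834 and 0.115 in these comparisons. These medians are over 408, 375, 350, 267 and 186 events, fewer than were simulated, so the 2 sets differ. On the simulated counts the test missed most events with a log2 odds change of 4. At an overdispersion of 0.1, edgeR with a quasi-Poisson dispersion recovered 8% to 24% of them. The part of the spread, of inclusion near 100% and of the fit in these percentages was not tested. Larger changes were not simulated, and an absent call does not show equal splicing.

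Without a test, events were also counted whose library values did not overlap between 2 cell types, with at least 10 counts in every library. In AbsPro vs Stem, 16 of 1056 frame-shifting events did not overlap, or 1.52%, where 2.28% of all events did not. Of these, 3 were higher and 13 lower in AbsPro, where 0.919% and 1.36% of all events were. In SecPDG vs Stem, 9 of 1064 did not overlap (1.19% of all events), 5 higher (0.688%) and 4 lower (0.497%). In Tuft vs Stem, 4 of 880 did not (0.749%), 2 higher (0.562%) and 2 lower (0.187%). In Ent vs Stem, 8 of 851 did not (1.13%), 1 higher (0.393%) and 7 lower (0.736%). In EEC vs Stem, 6 of 182 did not (7.38%), 3 higher (5.49%) and 3 lower (1.9%). In SecPDG vs AbsPro, 12 of 639 did not (2.31%), 6 higher (1.31%) and 6 lower (1.0%), and in Ent vs AbsPro, 7 of 509 did not (1.64%), 6 higher (1.17%) and 1 lower (0.468%). In Tuft vs SecPDG, 0 of 528 did not overlap, where 0.229% of all events did not, with 0.229% higher and 0.0% lower. In each comparison the share among frame-shifting events was below that of all events, which include them, and in several it was near it. For lower events alone it was not below in Tuft vs Stem and Ent vs Stem. Exons of the same size that keep the frame gave 19 of 809 in AbsPro vs Stem and 11 of 878 in SecPDG vs Stem. They gave 7 of 685 in Tuft vs Stem, 6 of 631 in Ent vs Stem and 8 of 121 in EEC vs Stem. In the comparisons without Stem they gave 11 of 534 in SecPDG vs AbsPro, 10 of 413 in Ent vs AbsPro and 2 of 417 in Tuft vs SecPDG. These shares were not tested and are not read as a trait of the frame-shifting exons.

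**Figure D3:**
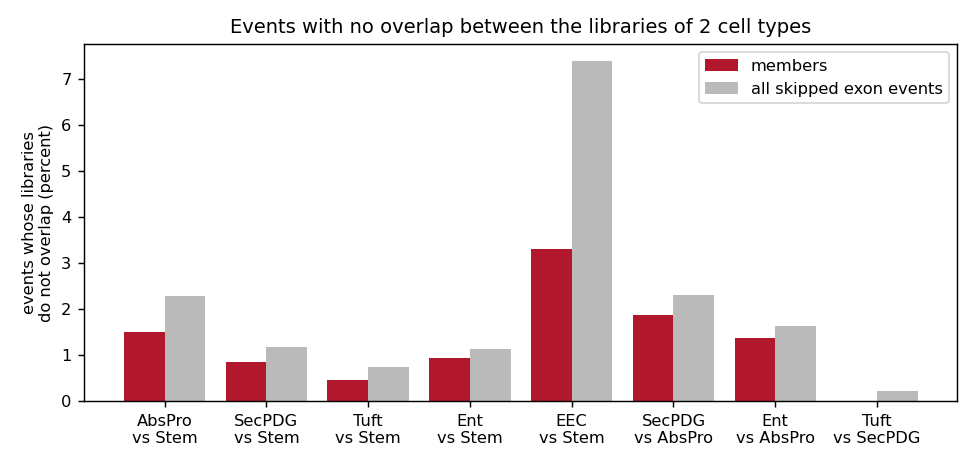
Percentage of events whose library values do not overlap between 2 cell types (vertical axis) in 8 comparisons, for frame-shifting exons of 61 to 200 bases (red) and all skipped exon events (grey), with at least 10 counts in every library. Red bars are lower than grey bars, which include the red events, in each comparison. Both are highest in EEC vs Stem, which has 2 EEC libraries.

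The events described next are those of genes that the study names for splicing and, chosen after their values were seen, those that did not overlap by a difference of means of at least 10 points. Values are given library by library in the order of the tables, for libraries with at least 10 counts. None of these differences passed the test, and their adjusted p by edgeR is no lower than the limits above.

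Among the adhesion and initiation factor genes named by the study, Itga6 and Eif4a2 held an event with many counts and different levels. Itga6 encodes the integrin alpha 6 chain, a laminin receptor subunit, and its exon of 130 bases separates the known forms with A and B tails: the included form ends inside the exon, and the other form reads on for 159 bases to its own stop. Inclusion was 63.2%, 43.0% and 43.3% in Stem and 36.5%, 41.6% and 38.5% in AbsPro. In SecPDG it was 0%, 22.5%, 33.4% and 31.9%, and in Ent 3.95%, 39.3%, 14.4%, 24.3% and 36.6%. Each AbsPro, SecPDG and Ent library was thus lower than each Stem library, with differences of means from Stem of -11.0, -27.9 and -26.1 points (adjusted p = 0.923, 0.716 and 0.590 by edgeR). Tuft libraries overlapped with all of these at 97.6%, 31.2%, 1.61%, 38.2% and 30.4%, and the EEC libraries were at 100% and 12.2%. The level of all Itga6 RNA was lower than in Stem in Ent (log2 change -1.19 ± 0.35 SE, adjusted p = 0.00347 by edgeR) and in EEC (-2.32 ± 0.49, adjusted p = 0.000147), and with size factors in place of TMM scaling these changes were -0.72 and -1.71.

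Eif4a2 encodes a helicase of translation initiation. Its exon of 107 bases holds the last 10 coding bases of an annotated transcript, printed above. Inclusion was 46.7%, 38.8% and 36.2% in Stem, 57.8%, 33.7% and 46.2% in AbsPro, and 15.5%, 48.0%, 49.7%, 38.8% and 71.4% in Ent. It was 0%, 13%, 7.19% and 13.7% in SecPDG, 0%, 25.9%, 0%, 25% and 16.7% in Tuft, and 10.7% and 18.6% in EEC. All libraries of the 3 secretory types SecPDG, Tuft and EEC were below all Stem libraries, with differences of means of -32.1, -27.1 and -25.9 points (adjusted p = 0.716, 0.625 and 0.854 by edgeR), and SecPDG was also below AbsPro, with a difference of -37.4 points (adjusted p = 1). The exon of 140 bases of the same gene, whose skipping gives an early stop, was between 71.3% and 100% in every library. The level of Eif4a2 RNA did not pass the test against Stem in any cell type, with log2 changes from -0.98 ± 0.48 (SE) in EEC to 0.12 ± 0.36 in Tuft.

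Ctnnd1 encodes p120 catenin, which binds the cytoplasmic tail of E-cadherin. Its exon of 88 bases was included at 62.4%, 100% and 100% in Stem and at 100% in all 19 libraries of the other cell types. The 1 Stem library with skipping thus made the whole difference of 12.5 points from each cell type, and the groups overlapped. Its exon of 151 bases was at 100% in all Stem libraries and 90.7% or more in Tuft, and its 5′ UTR exon of 118 bases had at most 15 counts in a library. The remaining events of these genes were nearly always included, with the Eif4a2 exon of 169 bases at 96.4% or more in Stem, AbsPro and Ent and the Itga6 exon of 62 bases at 100% in all Stem libraries and 81.4%, 100% and 100% in AbsPro. Spen, also named by the study, held no such event. In Cbfa2t2, a corepressor gene, inclusion of the exon of 140 bases was 100% and 89.7% in the 2 Stem libraries with counts and 45.3%, 0% and 57.4% in AbsPro, on 13 to 25 counts a library.

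The next events lie in genes of RNA-binding proteins, grouped here for reading. Esrp1 encodes an epithelial splicing regulator, and its exon of 110 bases holds the last 75 coding bases of an annotated form. Inclusion was 100%, 83.1% and 82.7% in Stem and 52.1%, 32.9% and 75.8% in AbsPro, lower in every AbsPro library, with a difference of means of -35.0 points (adjusted p = 0.800 by edgeR). SecPDG libraries, at 100%, 61.5%, 91.6% and 63.7%, overlapped with both. Mbnl1 encodes a muscleblind splicing regulator, and skipping of its exon of 95 bases changes the end of the protein. Inclusion was 71.0%, 94.1% and 60.7% in Stem and 54.5%, 45.2% and 52.8% in AbsPro, a difference of means of -24.4 points (adjusted p = 0.800 by edgeR), while SecPDG spanned 52.3% to 100% and Tuft 30.7% to 76.8%. The RNA level of Mbnl1 was lower than in Stem in Ent (log2 change -1.37 ± 0.30 SE, adjusted p = 0.000237) and EEC (-2.07 ± 0.43, adjusted p = 0.000102), and -0.88 and -1.43 with size factors.

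Hnrnph3 encodes a ribonucleoprotein of the H and F family, and skipping of its exon of 139 bases gives an early stop. Inclusion was 34.7%, 58.5% and 75.3% in Stem and 100%, 77.7%, 100% and 91.9% in SecPDG, so that all SecPDG libraries were higher, by 36.3 points in the means (adjusted p = 0.716 by edgeR). AbsPro lay between them at 70.3%, 92.8% and 62.8%. Hnrnpr encodes another ribonucleoprotein, and its exons of 166 and 169 bases, which hold the start codon side, share an end and most of their reads and count as 1 observation. The exon of 169 bases was at 95.2%, 79.9% and 69.7% in Stem and at 61.1%, 54.8%, 21.1%, 64.9% and 59.1% in Ent, a difference of means of -29.4 points (adjusted p = 0.590 by edgeR).

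Raly, which encodes an hnRNP C-like protein, held an exon of 83 bases in its 5′ UTR, where the frame is not touched. Inclusion was 81.5%, 43.5% and 43.7% in Stem, 40.2%, 31.6% and 34.6% in AbsPro, and 29.9%, 42.6%, 31.8%, 39.2% and 30.5% in Ent. AbsPro and Ent were below Stem in all libraries, and the nearest libraries of Ent and Stem were at 42.6% and 43.5%. The RNA level of Raly was lower than in Stem in Tuft (log2 change -1.17 ± 0.29 SE), Ent (-1.57 ± 0.29) and EEC (-2.49 ± 0.43), with adjusted p of 0.00198, 2.61e-05 and 6.9e-06 by edgeR, and with log2 changes of -0.995, -1.05 and -1.86 with size factors.

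Msi2 encodes a Musashi RNA-binding protein, and its exon of 73 bases holds the last 42 coding bases of the annotated form. Inclusion was 100%, 97.4% and 100% in Stem and 0%, 95.1%, 85.5%, 92.0% and 91.3% in Tuft. The difference of means of -26.4 points comes mostly from the 1 Tuft library at 0%, which had 19 counts. Other cell types had fewer libraries with enough counts and were also below Stem in means, at 47.4%, 100% and 93% in AbsPro, at 66%, 44% and 91.6% in 3 SecPDG libraries and at 12.6%, 32.4% and 59% in 3 Ent libraries (unadjusted p = 0.00592 for Ent vs Stem, adjusted p = 0.590 by edgeR). In Zranb2, a zinc finger protein of the splicing machinery, the exon of 109 bases was at 100%, 100% and 97.7% in Stem and 95.7%, 72.7%, 90.2%, 82.4% and 96.5% in Ent. In Clk3, a kinase of SR proteins, the exon of 97 bases was at 91.6%, 45.7% and 96.1% in AbsPro and at 100%, 100%, 100% and 97.1% in SecPDG. In G3bp1, a stress granule protein, the exon of 82 bases was at 99.2%, 92.2% and 100% in AbsPro and 69.4%, 89.9%, 86.7% and 91.1% in SecPDG.

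At the cell surface, St14 had an event that did not overlap in 4 comparisons, as many as the exons of Itga6 and Eif4a2. It encodes matriptase, a membrane serine protease of epithelia, and skipping of its exon of 160 bases gives an early stop. Inclusion was 78.7%, 83.5% and 84.6% in Stem and 88.4%, 91.7% and 72.8% in AbsPro, against 100%, 93.1%, 100% and 98.9% in SecPDG and 100%, 100%, 100%, 97.3% and 100% in Ent. SecPDG and Ent libraries were all above those of Stem, by 15.8 and 17.2 points, and of AbsPro, by 13.7 and 15.2 points (adjusted p = 0.716, 0.590, 1 and 1 by edgeR). Tuft libraries with enough counts were at 100%, 100%, 100% and 88.1%, above all 3 of Stem as well, but 1 Tuft library had only 2 counts and the comparison was not among those counted. The RNA level of St14 did not pass the test in any comparison with Stem, with log2 changes of 0.09 ± 0.36 (SE) in SecPDG and -0.32 ± 0.34 in Ent.

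Atp8a1, a phospholipid flippase gene, was included at 58.4%, 77.0% and 90.6% in AbsPro and at 100%, 92.4%, 100%, 100% and 100% in Ent for its exon of 74 bases. Its Stem libraries ranged from 29.7% to 100% and overlapped with both. Sft2d2, a vesicle transport gene, had inclusion of 100%, 85.5% and 100% in Stem and 81.8%, 54.1% and 83.2% in AbsPro for its exon of 86 bases. Tmem45b, with an exon of 200 bases on the start codon side, was at 87.7%, 63.6% and 94.6% in AbsPro and 94.9% to 100% in the 5 Ent libraries. Pitpnb, a phosphatidylinositol transfer protein gene, had inclusion of 33.0%, 43.0% and 36.8% in AbsPro and 0%, 28.5%, 19.8% and 25.8% in SecPDG for its exon of 85 bases.

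Among mitochondrial genes, Ndufs4 had the largest difference from Stem of any non-overlapping event described here. It encodes a subunit of complex I of the respiratory chain, and skipping of the exon of 79 bases gives a stop after 13 bases. Inclusion was 100% in all 3 Stem libraries, 96.0% or more in all 17 libraries of AbsPro, SecPDG, Tuft and Ent, and 40.5% and 55.6% in EEC. The EEC values rest on 20 and 143 counts and the difference of means from Stem was -52.0 points (log2 odds change -10.79 ± 4.02 SE, unadjusted p = 0.00735, adjusted p = 0.854 by edgeR). The deeper EEC library alone, at 55.6%, was below each library of the other 5 cell types. Tomm34, of mitochondrial protein import, was at 100% in the 3 Stem libraries and 69.4%, 91.1% and 68.1% in AbsPro for its exon of 148 bases. Malsu1, of mitochondrial ribosome assembly, was at 100%, 100% and 93.4% in Stem and 86.9%, 69.7% and 91.3% in AbsPro for its exon of 179 bases. Tomm22, an import receptor, was at 86.6%, 92.4% and 80.7% in AbsPro and 96.7% to 100% in Ent for its exon of 119 bases.

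Cenpa encodes the histone H3 variant of centromeres, and its exon of 137 bases ends the frame when included. Inclusion was 8.45%, 40.3% and 35.2% in Stem and 100%, 52.4%, 54.0%, 45.1% and 56.7% in Tuft, higher in all Tuft libraries and by 33.6 points in the means (adjusted p = 0.625 by edgeR), on 19 to 70 counts in Tuft. AbsPro, at 72.7%, 31.9% and 55.0%, and SecPDG, at 19.1% to 83.4%, overlapped with Stem. The RNA level of Cenpa was lower than in Stem in Tuft (log2 change -1.46 ± 0.31 SE, adjusted p = 0.000338), Ent (-2.14 ± 0.33, adjusted p = 1.03e-06) and EEC (-1.96 ± 0.47, adjusted p = 0.000546), and with size factors the changes were -1.27, -1.61 and -1.24, the last with an adjusted p of 0.0201 and so no longer called. Brd2, a bromodomain gene, has a coding form without its exon of 92 bases, and inclusion was 0%, 11.8% and 12.5% in Stem and 29.6%, 35.1% and 15.0% in AbsPro. Syce2, known from the synaptonemal complex of meiosis, was included at 100%, 100% and 96.1% in AbsPro and at 17.0%, 63.8%, 12.3% and 73.3% in SecPDG for its exon of 154 bases, a difference of means of -57.1 points (adjusted p = 1 by edgeR). Its Stem libraries were at 100%, 100% and 67.6%.

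The remaining non-overlapping events lay in genes of varied roles. Plcl2, a phospholipase C-like gene, was at 100% in all Stem libraries and 88.7%, 66.7% and 68.7% in AbsPro for its exon of 110 bases, and all Ent libraries were at 92.2% or more. Stk40, a kinase-like gene, had an exon of 67 bases on the start codon side that was at 0% in all 3 Stem libraries, on 138, 61 and 45 counts, and at 9.69%, 37.4% and 5.95% in AbsPro. Azin1, the antizyme inhibitor, had a 5′ UTR exon of 160 bases at 0% in all Stem libraries and 4.07%, 1.88% and 31.8% in AbsPro. Eif5a, a translation factor, had a 5′ UTR exon of 94 bases at 83.2%, 11.5% and 11.4% in Stem and 4.36%, 0.908% and 4.10% in AbsPro.

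Txnrd1, the thioredoxin reductase gene, had a 5′ UTR exon of 107 bases at 100%, 100% and 98.6% in Stem and 97.6%, 42.6% and 93.1% in AbsPro, a difference of means of -21.8 points that 1 AbsPro library mostly makes. Snapc3, of the complex that activates small nuclear RNA genes, was at 88.7%, 79.8% and 70.1% in Stem and at 100% in both EEC libraries for its exon of 85 bases. Ctbp1, a corepressor gene, was at 97.1%, 77.0% and 93.9% in AbsPro and 100% in all 5 Ent libraries for its exon of 155 bases. Dram2, of lysosomal membranes, whose exon of 83 bases brings a stop with its first bases, was at 92.7%, 96.7% and 95.1% in AbsPro and 88.9%, 59.7%, 65.6%, 77.9% and 83% in Ent. Tpsg1, a tryptase gene, was at 86.1%, 100% and 85.4% in AbsPro and 73.9%, 84.1%, 73.3% and 70.8% in SecPDG for its exon of 172 bases.

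**Figure D4:**
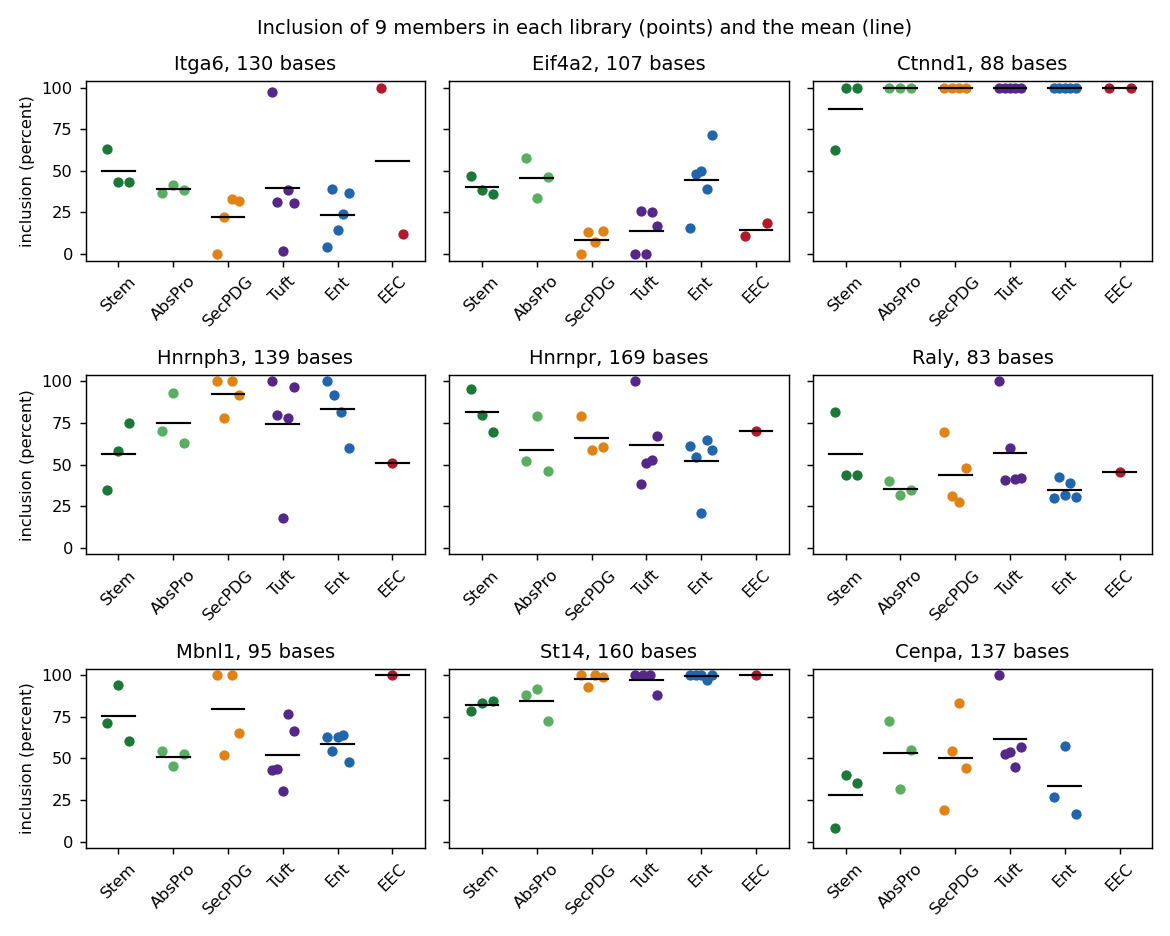
Inclusion in percent (vertical axis) of 9 exons of frame-shifting length in each library with at least 10 counts (points) and the mean of each cell type (lines). The Raly exon lies in the 5′ UTR, where the frame is not touched. Eif4a2 points of SecPDG, Tuft and EEC lie at 25.9% or lower and those of Stem at 36.2% or higher, and the Ctnnd1 exon is at 100% in every library but 1 of Stem.

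Grouped by the role of their genes, the exons were mostly included in Stem in each of 10 lists. Among 89 splicing regulators, 37 held 66 of the events, and 75% of the 56 measured in Stem reached 90%, with 14 between 10% and 90%. Among 85 core spliceosome genes, 25 held 30 events, and 95.8% of the 24 measured reached 90%. The share was 97.2% of 141 events in membrane trafficking, 93.2% of 44 in DNA replication and repair, 91.8% of 97 in cytoskeleton and adhesion and 88.3% of 60 in the cell cycle and mitosis. It was 88.1% of 67 in translation and ribosome, 87.1% of 70 in SUMO and ubiquitin genes, 86.8% of 91 in chromatin and 85.7% of 28 in Wnt and Notch genes. For all frame-shifting events it was 90%, so that splicing regulators had the lowest share of the 10 lists and membrane trafficking the highest, without a test.

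The RNA level of the genes that hold these exons was tested as a readout that the choice by length did not use. A gene counts as a host only where its reads show both forms of an exon, so being a host itself depends on RNA level. The shares of all genes given beside those of the hosts are therefore not matched to them in level. A gene was called at an adjusted p under 0.01 by edgeR with the mean over all libraries at 50 normalized counts or more. In AbsPro, 11 of 1706 genes were called against Stem, 11 higher and 0 lower, where 0.588% of all genes were called, 0.496% higher and 0.0922% lower. In SecPDG, 181 of 2040 were called (4.98% of all genes), 130 higher (3.38%) and 51 lower (1.6%). In Tuft, 289 of 2236 were called (12.1%), 137 higher (7.83%) and 152 lower (4.23%). In Ent, 507 of 2011 were called (22.2%), 103 higher (10.7%) and 404 lower (11.5%). In EEC, 135 of 690 were called (19.9%), 25 higher (10.8%) and 110 lower (9.14%). The direction depended on the scaling. With the size factors of DESeq2 in place of TMM, 26 were called in AbsPro (1.01% of all genes), 24 higher (0.808%) and 2 lower (0.198%), and 302 in SecPDG (7.24%), 219 higher (4.87%) and 83 lower (2.37%). In Tuft 429 were called (13.9%), 271 higher (9.6%) and 158 lower (4.26%), in Ent 569 (26.7%), 343 higher (20.1%) and 226 lower (6.52%), and in EEC 156 (25%), 92 higher (19.3%) and 64 lower (5.66%). The median log2 change of all genes was 0.00 and 0.00 in AbsPro and SecPDG, 0.83 in Tuft, 1.17 in Ent and 0.68 in EEC with TMM, and 1.03, 1.72 and 1.31 in the last 3 with size factors. The median of the host genes was 0.06, -0.04, -0.19, -0.43 and -0.62 with TMM and 0.04, -0.03, 0.01, 0.09 and -0.02 with size factors. The shares of reads outside genes, given above, also differed between these cell types. So did the summed normalized level of 4 endothelial markers, at 9.60 to 32.9 in Stem, 87.8 to 446 in Tuft, 341 to 828 in Ent and 795 and 1510 in EEC, and that of 5 stromal markers, at 31.7 to 192 in Stem, 107 to 547 in Tuft, 406 to 1149 in Ent and 288 and 2063 in EEC. For 6 immune markers it was 942 to 1792 in Stem, 1458 to 3341 in Tuft, 490 to 830 in Ent and 472 and 1571 in EEC. Their part in the host gene changes was not tested, and fewer cells and less RNA per cell cannot be told apart here.

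The role lists are read against all host genes, of which 5.12% were higher and 20.1% lower in Ent with TMM and 17.1% and 11.2% with size factors. Host genes of splicing regulators had 13 of 27 lower and 0 higher in Ent, and 10 lower and 0 higher with size factors. In AbsPro, SecPDG and Tuft 0 of 24, 0 of 30 and 0 of 29 of them were called with TMM, while 1 was lower in SecPDG and 1 in Tuft with size factors. Host genes of the cell cycle and mitosis had 16 of 38 lower in Ent (12 with size factors) and 0 higher under both. Those of core spliceosome genes had 8 of 17 lower (5 with size factors) and 0 higher under both. Those of chromatin had 22 of 55 lower and 0 higher, and 15 lower and 3 higher with size factors. Those of DNA replication and repair had 15 of 33 lower and 0 higher, and 8 and 2 with size factors, and those of translation and ribosome 16 of 35 lower and 0 higher, and 12 and 2. Those of cytoskeleton and adhesion had 6 of 55 lower and 3 higher, and 4 lower and 14 higher with size factors. Those of SUMO and ubiquitin had 8 of 43 lower and 0 higher, and 3 and 1 with size factors. Those of Wnt and Notch had 5 of 18 lower and 1 higher, and 5 and 4 with size factors. In SecPDG, where 6.37% of all host genes were higher and 2.5% lower with TMM (10.7% and 4.07% with size factors), host genes of membrane trafficking had 11 of 88 higher and 0 lower (21 and 0 with size factors), while in Ent they were 2 higher and 2 lower of 86 with TMM and 17 and 0 with size factors. These are counts over lists that were not tested as sets.

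**Figure D5:**
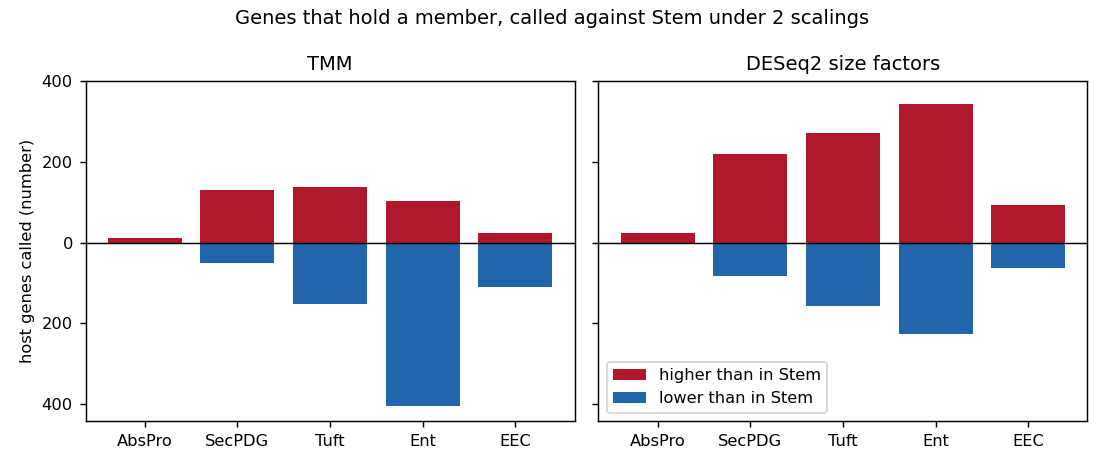
Number of genes with a frame-shifting skipped exon that were called higher (red, upward) or lower (blue, downward) than in Stem in each cell type (horizontal axis), with TMM scaling (left) and with DESeq2 size factors (right). In Tuft, Ent and EEC most called genes are lower with TMM and higher with size factors.

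The values in Stem just inside and outside the length range rest on few events. Exons of 61 bases reached 90% in 22 of 24 measured events and those of 62 bases in 20 of 20, while those of 60 bases, just outside and a multiple of 3, did so in 28 of 38. Exons of 199 bases did so in 11 of 12 and of 200 bases in 10 of 11, and those of 201 bases, also a multiple of 3, in 15 of 20.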

How the data were processed

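RNA of 22 sorted libraries was sequenced, and the authors aligned reads to mm10 with STAR 2.5.2a and counted them on genes with HTSeq 0.6.1p1, without strand. With rMATS the authors listed skipped exons, Stem against 1 other cell type at a time, and deposited them with inclusion and skipping read counts for each library, which stand by place and without names. The tables also hold the authors' p-values, FDR and inclusion differences, as do tables of other splicing and polyadenylation tools. None of these columns was used. Events were joined across the 5 tables by coordinates, exons of 61 to 200 bases not divisible by 3 were kept, and inclusion was computed from counts and effective lengths.

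Events with a mean of at least 10 counts in each cell type were tested in edgeR 4.0.16 (R 4.3.3) by the quasi-likelihood test, as the change of inclusion against skipping counts, with Benjamini-Hochberg adjustment over all events of the table. The comparisons without Stem joined 2 tables. Called means an adjusted p under 0.05. A level needs at least 10 counts in every library of the cell type. Gene counts were tested over all 22 libraries with edgeR (TMM, adjusted p under 0.01, mean of at least 50), and HTSeq's 5 entries that name no gene were left out. The share of reads in no gene is given with the depth. The first gene fit used estimateDisp and was replaced by the present one because an earlier description of these data used it. Frames were read on GENCODE M21 transcripts, and an early stop lies more than 50 bases before the last junction. Alternatives were DESeq2 1.42.0, limma 3.58.1, a quasi-binomial model, other filters and leaving out libraries. The fits were tested on simulated data. The exons, role lists and tests were chosen with earlier results of these data known. Named events are those of genes named by the study and, after their values were seen, those that did not overlap by at least 10 points, since the planned rules on called events named none. Library intervals are not given, and reads are not independent molecules. Per the study's methods, libraries came from separate mice or pools of mice and separate sorts, and p-values measure the spread between these libraries.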

Additional observations from a re-analysis of the deposited data

Results flagged for a closer look

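In 15 of the 76 groups of 4 or 5 libraries looked at among the named events, 1 library lay far from the others by Dixon's criterion, where chance gives about 1 in 20 for values without a bound. Inclusion is bounded at 100%, and in 6 of the 15 all other libraries were at 100%, where any departure is marked, so that the number of such groups is not read against chance. In Tuft, such libraries were at 100% for the Eif5a exon of 94 bases, 100% for the Cenpa exon of 137 bases, 94.8% for Plcl2, 4.04% for G3bp1, 18.2% for Hnrnph3 and 0.0% for Msi2. In SecPDG they were at 93.1% for St14, 94.3% for Tmem45b, 72.9% for Snapc3, 61.4% for Atp8a1 and 56.1% for Sft2d2. In Ent they were at 92.4% for Atp8a1, 91.4% for Txnrd1, 21.1% for the Hnrnpr exon of 169 bases and 56.9% for Malsu1. No named event was higher without overlap in one comparison with Stem and lower without overlap in another.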

How the results depend on the processing

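The count of called frame-shifting events was 0 in 183 of 191 alternatives over the 8 comparisons. With the dispersion fixed at 0.1 it was 1 in SecPDG vs Stem and 1 in Ent vs Stem, and limma gave 1 in EEC vs Stem. A quasi-Poisson dispersion gave 11 in EEC vs Stem (11 robust, 10 without trend) and 1 in SecPDG vs AbsPro (1 without trend), among them Ndufs4 at -52.0 points and Eif4a2 at -37.4 points. On simulated counts this setting made up to 17 false calls, in Tuft vs Stem, and 0 in EEC vs Stem, and SecPDG vs AbsPro was not simulated. It recovered 32% to 47% of log2 odds changes of 4 at an overdispersion of 0.02 and 8% to 24% at 0.1. The designed test recovered 16% to 34% and 0%. The 8 edgeR settings were added after the first gave 0 calls, and the designed one was kept. For the alternatives, calls over all events are not given, so their calls are not read as a trait of the frame-shifting exons. Leaving out each library, with the same conservative test, gave 0 throughout. Non-overlapping events were 2 in Tuft vs Stem with at least 20 counts and 1 in Tuft vs SecPDG with at least 5.

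Host genes called with DESeq2 size factors were 26 in AbsPro and 302 in SecPDG, with estimateDisp 6 in AbsPro and 177 in Tuft, and with DESeq2's Wald test 36 in AbsPro, 323 in SecPDG and 483 in Tuft. With a replicate block they were 451 in Tuft. After the mean of each cell type was taken off, same-numbered libraries correlated at -0.438 to 0.35 in 44 pairs, 8 of them over 0.1. Differently numbered libraries were not set beside them, so whether the numbers pair the libraries cannot be told from these values. Leaving out 1 library gave between 5 and 13 host genes in AbsPro, between 129 and 165 in SecPDG, between 194 and 334 in Tuft, between 371 and 647 in Ent and between 109 and 299 in EEC. The AbsPro count was 5, 7 and 5 without Stem replicates 1, 2 and 3 and 6 without AbsPro replicate 3, and the EEC count was 299 without EEC replicate 2. The cause was not tested. No paired analysis was possible because the columns of the splicing tables carry no replicate number. Among values of single events under alternatives, 1023 kept their side of the threshold and 5 passed it.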
